A study of Mus musculus with 10 samples.

Results

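Interferon-stimulated genes were followed across sorted splenic CD4+ T cells of the mouse, with and without the genome organizer Satb1. The genes were taken by symbol from a list of 39 that cells switch on after interferon, and all 39 were among the 48321 symbols counted in every library. All 39 were also among the 13796 genes with enough counts to be tested, and 37 of them had over 10 counts in every library.

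The mice were young adults on the C57BL/6 background, untreated, and carried a FoxP3-Gfp reporter, in which green fluorescence marks cells that express FoxP3, the defining transcription factor of regulatory T cells (Tregs). KO mice were Satb1 F/F; ThPOK-cre, so the deletion was driven in the whole CD4 lineage, conventional T cells and Tregs alike, from the time of lineage commitment in the thymus. WT mice are given only as wild type, and whether they carried the Cre or the floxed allele is not given in the sources used here. There were 5 groups of 2 libraries each, namely WT FoxP3+CD25+ and KO FoxP3+CD25+ cells (Tregs), WT FoxP3-CD25- and KO FoxP3-CD25- cells (non-Tregs), and KO FoxP3+CD25- cells, which were sequenced from KO mice only. CD25 is the alpha chain of the interleukin-2 receptor. The sample names number 2 mice per genotype, and libraries with the same genotype and number were taken as one mouse.

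The libraries held 6094952 to 12410064 counts in genes, with a median of 7721649. Foxp3 and Il2ra, the gene for CD25, followed the sort. Foxp3 reached 617.7 to 739.1 counts per 1000000 counts in genes (CPM) in the 4 Treg libraries. It was at 317.6 and 361.1 CPM in the FoxP3+CD25- libraries and 18.0 to 38.9 CPM in non-Tregs. Il2ra was at 627.1 to 760.2 CPM in Tregs and 1.55 to 11.4 CPM in non-Tregs. In FoxP3+CD25- cells it was at 16.8 and 16.7 CPM, low but above every non-Treg library. Satb1 stood at 379.2 and 477.6 CPM in WT Tregs and at 597.8 and 533.5 CPM in KO Tregs. Counts per whole gene do not separate the deleted part from the rest, so Satb1 did not check the genotype labels. WT replicate 1 had 14487 and 16362 counts of Xist and 0 of the Y-linked Ddx3y, and all other libraries had at most 4 counts of Xist, so the WT replicates differ in sex. Markers of T cells summed to 2428 to 3483 CPM in every library.

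Interferons are secreted antiviral cytokines. Type I interferons and interferon gamma bind separate receptors, and both signal through Janus kinases to transcription factors. These bind the interferon-stimulated response element or the gamma-activated site in the promoters of their targets. The induced proteins sense viral RNA, degrade or sequester it, block viral entry and replication, or attack the vacuoles of intracellular microbes. Resting T cells express many of these genes at a low tonic level, and these mice were untreated.

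Promoter windows are shown for 6 of the genes on which the comparisons below turn, to let the response-element letters be seen in place. They are the 5 called genes with a match in a window and, for contrast, Samhd1. The windows of Ifit2 (2), Irf7 (1) and Isg20 (3), also called below, held no match and are not printed. Oas2, called below as well, had no window at hand. Matches were not limited to called genes, since 17 of the 29 genes with a window (58.6%) held a match. Whether a match goes with a call was not tested. Each window runs from 250 bases before to 50 bases after a RefSeq transcription start on GRCm38.p6, printed 5′ to 3′ on the strand of the gene, with every match to GAAANNGAAA in capitals. Both strands were searched, and a match on the opposite strand begins and ends with TTTC.
Gbp2, chr3:142620413-142620712, plus strand: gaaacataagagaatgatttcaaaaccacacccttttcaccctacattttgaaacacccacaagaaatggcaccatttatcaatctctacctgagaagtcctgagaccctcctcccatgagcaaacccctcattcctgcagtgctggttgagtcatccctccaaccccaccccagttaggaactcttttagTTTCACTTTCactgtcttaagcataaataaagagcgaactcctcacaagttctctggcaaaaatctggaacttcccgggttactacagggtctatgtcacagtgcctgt
Gbp3, chr3:142559794-142560093, plus strand: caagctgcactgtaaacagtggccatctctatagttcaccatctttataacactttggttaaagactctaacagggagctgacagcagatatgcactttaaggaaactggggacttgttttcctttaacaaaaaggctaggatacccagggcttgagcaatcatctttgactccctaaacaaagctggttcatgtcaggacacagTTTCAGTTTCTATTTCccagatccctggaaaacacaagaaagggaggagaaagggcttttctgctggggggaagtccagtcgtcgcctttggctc
Gbp7, chr3:142530086-142530385, plus strand: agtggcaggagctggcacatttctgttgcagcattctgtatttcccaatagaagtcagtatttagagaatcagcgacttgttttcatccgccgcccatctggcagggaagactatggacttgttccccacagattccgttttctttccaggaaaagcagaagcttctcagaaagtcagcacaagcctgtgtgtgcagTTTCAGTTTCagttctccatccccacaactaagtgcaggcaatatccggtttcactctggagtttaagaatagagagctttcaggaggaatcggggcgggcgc
Irgm1, chr11:48871371-48871670, minus strand: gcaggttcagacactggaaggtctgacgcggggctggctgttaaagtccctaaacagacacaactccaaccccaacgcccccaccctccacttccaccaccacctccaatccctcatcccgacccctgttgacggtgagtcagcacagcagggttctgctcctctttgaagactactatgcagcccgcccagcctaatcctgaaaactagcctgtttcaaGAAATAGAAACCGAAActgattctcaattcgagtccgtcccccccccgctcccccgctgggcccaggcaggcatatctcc
Ddx58, chr4:40239776-40240075, minus strand: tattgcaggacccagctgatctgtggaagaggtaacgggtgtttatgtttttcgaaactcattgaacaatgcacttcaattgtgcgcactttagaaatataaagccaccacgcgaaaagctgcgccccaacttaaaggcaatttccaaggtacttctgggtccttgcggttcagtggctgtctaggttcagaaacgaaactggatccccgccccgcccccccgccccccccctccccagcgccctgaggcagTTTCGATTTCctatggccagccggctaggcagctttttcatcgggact
Samhd1, chr2:157135047-157135346, minus strand: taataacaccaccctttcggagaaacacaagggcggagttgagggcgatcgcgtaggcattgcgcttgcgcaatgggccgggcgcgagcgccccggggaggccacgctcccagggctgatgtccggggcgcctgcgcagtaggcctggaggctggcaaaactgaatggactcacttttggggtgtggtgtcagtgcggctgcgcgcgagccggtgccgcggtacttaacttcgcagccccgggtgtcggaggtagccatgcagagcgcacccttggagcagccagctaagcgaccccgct
The printed windows of the 3 neighbouring guanylate-binding protein genes Gbp2, Gbp3 and Gbp7 each held the letters shortly before the start, the first base of a match lying at -59 in Gbp2, -45 and -39 in Gbp3 and -53 in Gbp7, and the matches in Gbp3 and in Irgm1 were overlapping pairs. The single match of Ddx58 lay just after its start, and the window of Samhd1 held none. Gbp3 has a second window (chr3:142560106-142560405), which also held none. RefSeq windows were at hand for 29 of the 39 genes, 35 windows in all, and 18 of these windows (51.4%) held at least 1 match, beside 3.44% of all 32851 windows of the same length. The shorter gamma-activated-site letters TTCNNNGAA, which read the same on both strands, were in 8 of the 35 windows (22.9%) and in 8.3% of all windows, and overlapped a GAAANNGAAA match in the Bst2 window alone. These are matches of letters, not measured binding.

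Levels of the genes spanned a wide range. Per kilobase of exon, Samhd1, whose product hydrolyses deoxynucleotides, was the highest of the 39, with a mean of 144.6 CPM per kb over the 10 libraries. The immunity-related GTPases Igtp (128.9 CPM per kb) and Ifi47 (101.6 CPM per kb) came next, and then the guanylate-binding proteins Gbp2 (65.3 CPM per kb) and Gbp7 (63.2 CPM per kb). Bst2, which tethers budding virus, followed at 50.7 CPM per kb. Ifit2 (24.1 CPM per kb), Irf7 (19.1), the ubiquitin-like modifier Isg15 (15.0) and Ifit1 (13.2) were in the middle of the order. The lower end held Ifit3 (6.50 CPM per kb), Oas1a (5.27), Rsad2 (2.49), Mx1 (2.45) and, as the lowest, Ifi44 (0.391). Ifit3b (1.08 CPM per kb) shares much of its sequence with Ifit3, so the division of reads between both is uncertain. Summed over the 39 genes, Tregs reached 5467 and 5717 CPM (WT) and 5494 and 5932 CPM (KO), and FoxP3+CD25- cells 5456 and 5919 CPM. The sums were 4523 and 4369 CPM in WT non-Tregs and 4447 and 4478 CPM in KO non-Tregs. In the sum all 6 FoxP3+ libraries were therefore above all 4 FoxP3- libraries, and Samhd1 alone gave 934.4 to 1606 CPM of it. The mean log2 CPM of the 39 genes, which weights each gene alike, did not separate them, at 5.60 to 5.78 in Tregs, 5.81 and 5.88 in FoxP3+CD25- cells and 5.59 to 5.71 in non-Tregs. The same RNA level can come from more cells that express a gene or more RNA per cell, and bulk libraries cannot tell these apart.

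**Figure D1:**
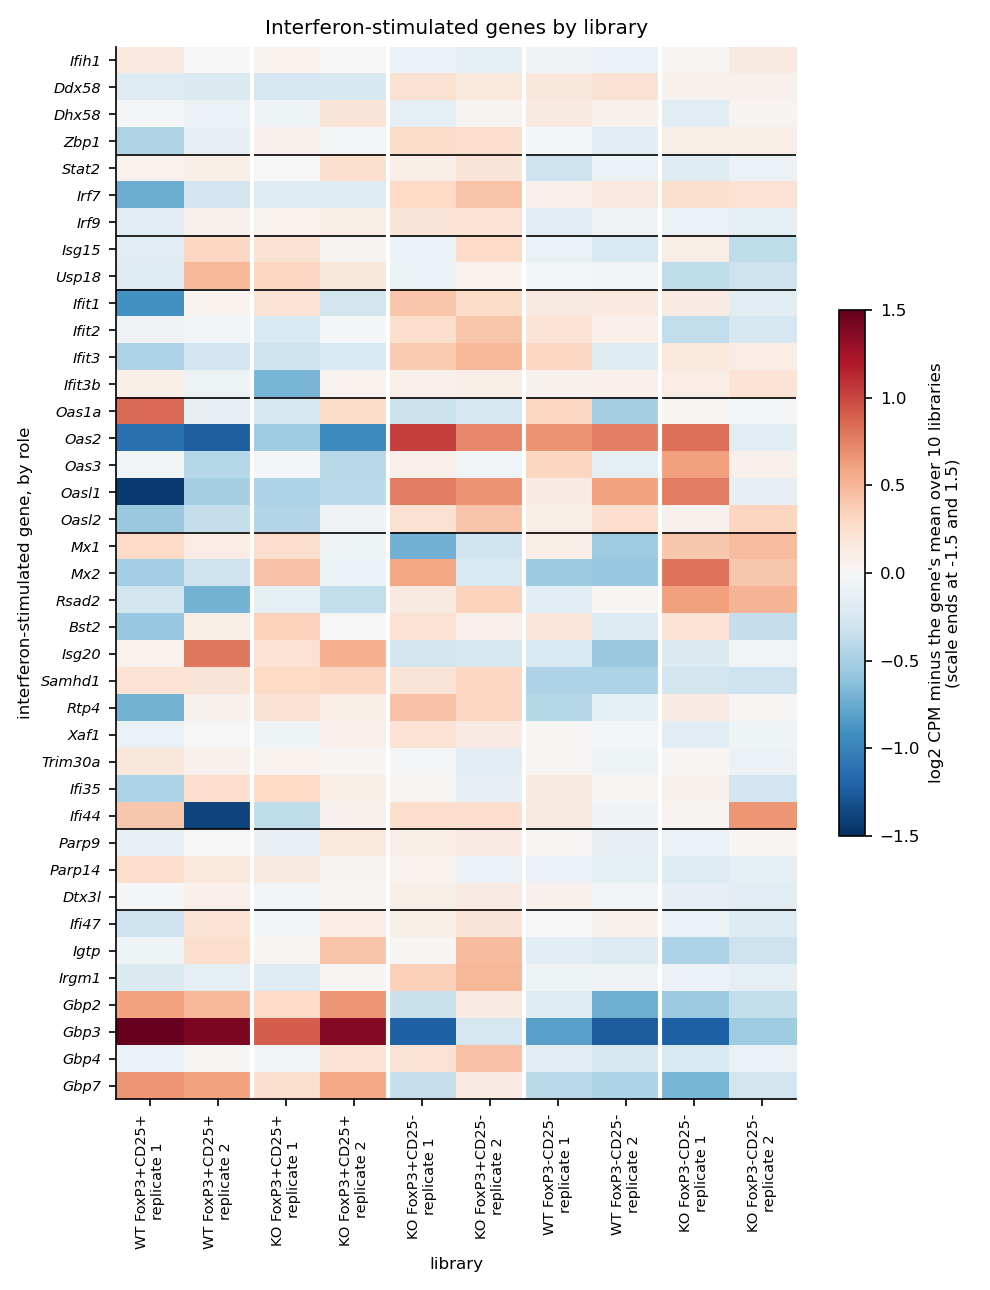
Each row is 1 of the 39 interferon-stimulated genes, ordered by role with black lines between roles, each column is 1 library, and the colour gives log2 CPM minus the mean of that gene over the 10 libraries. The Gbp2, Gbp3 and Gbp7 rows are red in the 4 FoxP3+CD25+ libraries and the Oas2 row is blue there, and the Ifit2 and Irgm1 rows are reddest in the FoxP3+CD25- libraries.

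The comparison of Tregs with non-Tregs in WT mice gave the reference difference between the sorted populations. Of the 39 genes, 5 were higher and 3 lower in WT Tregs at an adjusted p of 0.05 (edgeR quasi-likelihood F-test, Benjamini-Hochberg adjustment over all 13796 genes). Over all genes tested 10.9% passed, 7.15% higher and 3.75% lower. The median log2 fold change of the 39 was 0.00, from -1.92 to 2.53, and that of all genes was -0.02. The interferon-inducible GTPases held 3 of the 5 higher genes, the antiviral effectors the other two, and none of the 4 IFIT genes passed. The WT libraries did not overlap for 13 genes in the higher and 11 in the lower direction, beside 23.1% and 23.9% of all genes. With a block per mouse 11 passed, beside 19.1% of all genes.

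The guanylate-binding proteins, large GTPases that coat and disrupt vacuoles of intracellular microbes, gave the largest rise. Gbp3 stood at 226.8 and 198.1 CPM in WT Tregs and at 42.1 and 31.1 CPM in WT non-Tregs. The groups lay far apart, with a log2 fold change of 2.53 ± 0.31 (SE; adjusted p = 0.000401). Gbp7 was at 530.1 and 510.9 CPM against 254.0 and 241.1 CPM, a log2 fold change of 1.07 ± 0.18 (adjusted p = 0.00276). Gbp2 was at 236.1 and 219.6 CPM against 137.8 and 93.7 CPM, a log2 fold change of 0.98 ± 0.20 (adjusted p = 0.00936). These 3 genes lie together on chromosome 3 (GRCm38, 142530342 to 142638008), and 637 exon bases of Gbp7 are shared with the processed pseudogene Gm43802. The fourth member, Gbp4 on chromosome 5, was at 315.4 and 338.9 CPM against 298.3 and 284.7 CPM and did not pass. Neither did the immunity-related GTPases Irgm1 (158.0 and 168.6 against 175.3 and 178.4 CPM), Igtp (243.6 and 307.4 against 227.4 and 221.6 CPM) and Ifi47 (202.1 and 287.5 against 251.5 and 261.2 CPM).

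Both higher effectors act on nucleic acids or their precursors. Samhd1 was at 1504 and 1480 CPM in WT Tregs and at 935.8 and 934.4 CPM in WT non-Tregs, with replicates that almost coincided (log2 fold change 0.67 ± 0.11, adjusted p = 0.00202). Isg20, an exonuclease, was at 21.6 and 36.2 CPM against 17.7 and 14.1 CPM (0.86 ± 0.23, adjusted p = 0.0397), and most of that difference came from WT Treg replicate 2. Without that library its log2 fold change was 0.45 and did not pass.

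The 3 lower genes were a synthetase, a sensor and a transcription factor. Oas2, which makes the oligoadenylates that activate RNase L, was at 10.1 and 9.33 CPM in WT Tregs and at 35.9 and 38.0 CPM in WT non-Tregs. Its log2 fold change was -1.92 ± 0.29 (adjusted p = 0.00142), the largest fall of the 39. The other four OAS genes did not pass. Oasl1 was at 1.92 and 3.90 against 6.13 and 8.67 CPM (-1.31 ± 0.39, adjusted p = 0.0563) and Oasl2 at 13.4 and 15.5 against 21.4 and 23.7 CPM (-0.64 ± 0.18, adjusted p = 0.0511), whereas Oas1a was at 17.4 and 8.74 against 11.9 and 6.71 CPM. Ddx58, which encodes the RNA helicase RIG-I, was at 151.0 and 149.1 against 193.7 and 202.0 CPM (-0.40 ± 0.09, adjusted p = 0.0152). Irf7, the transcription factor that amplifies type I interferon production, was at 42.0 and 57.9 against 74.3 and 77.9 CPM (-0.61 ± 0.14, adjusted p = 0.0181). The Irf7 groups did not overlap, although 45 of its exon bases lie opposite Phrf1, and counting by strand is not stated.

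With each library left out in turn, Gbp3, Oas2, Samhd1 and Gbp7 passed every time. The lone library of an arm was then assumed to vary like the other groups. Gbp2 did not pass without WT FoxP3-CD25- replicate 2 (log2 fold change 0.72). Without WT FoxP3-CD25- replicate 1 or replicate 2, Ddx58 (-0.44 and -0.37), Irf7 (-0.65 and -0.57) and Isg20 (1.03 and 0.71) did not pass, and 5 and 4 genes were called in all. Without WT FoxP3+CD25+ replicate 1, Ddx58 (-0.40) and Irf7 (-0.39) did not pass, and Isg20 also did not pass without any one of the 4 KO FoxP3+CD25- and FoxP3-CD25- libraries, at 0.85 to 0.87.

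**Figure D2:**
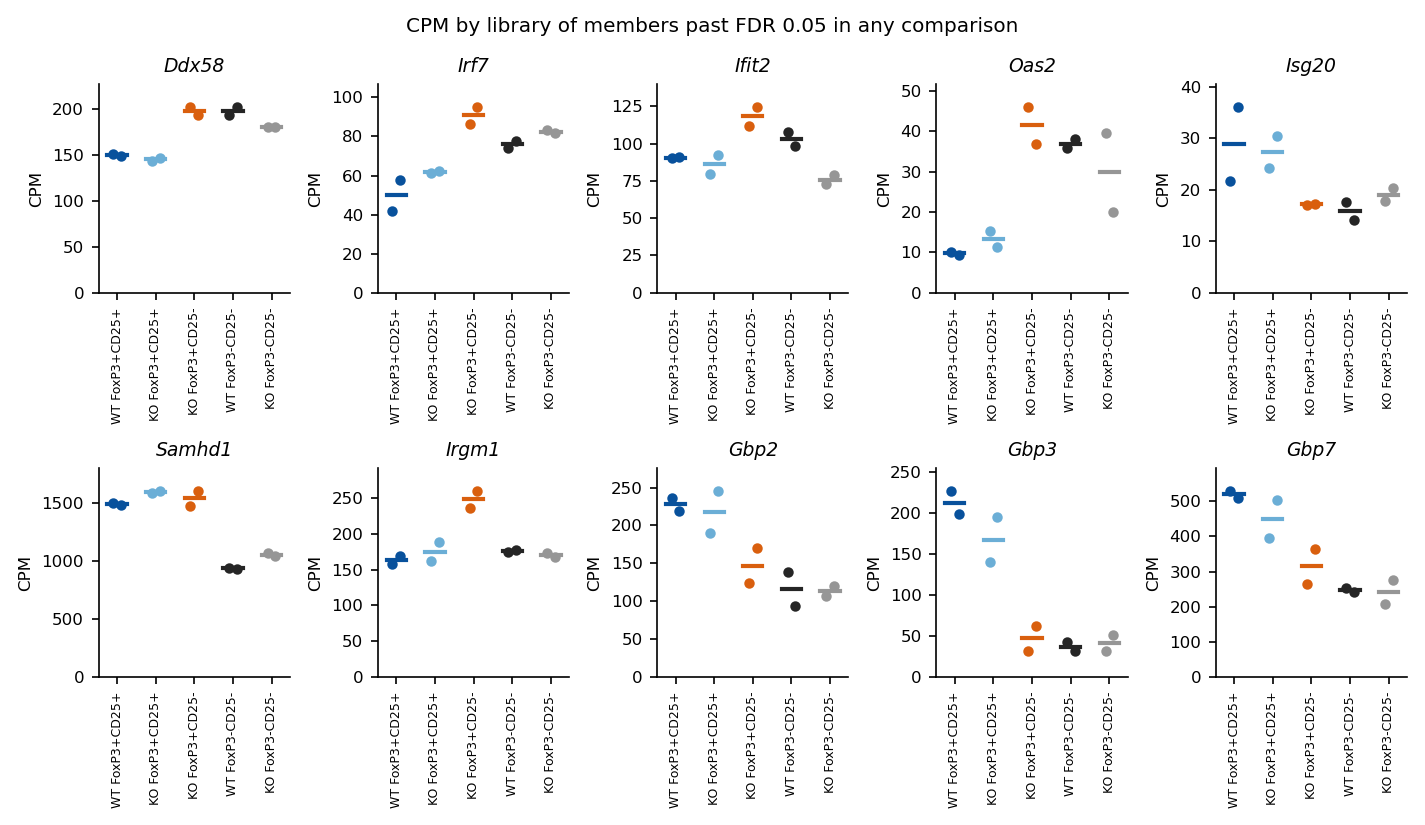
Each panel shows 1 gene that passed in at least 1 comparison, with CPM from 0 on an axis of its own, a point for each library and a bar for the mean of the 2 libraries of a group. Gbp3 is above 139 CPM in the 4 FoxP3+CD25+ libraries and below 63 CPM in the other 6, and Samhd1 separates FoxP3+ from FoxP3- cells.

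In KO mice the same comparison called 5 of the 39 genes, 4 higher and 1 lower in Tregs, beside 6.34% of all genes (3.52% higher, 2.81% lower). Gbp3 stood at 139.8 and 194.3 CPM in KO Tregs and at 31.8 and 51.3 CPM in KO non-Tregs (log2 fold change 2.0 ± 0.31, adjusted p = 0.0031). Samhd1 was at 1586 and 1606 against 1066 and 1040 CPM (0.60 ± 0.11, adjusted p = 0.00711). Gbp7 was at 396.3 and 502.5 against 206.8 and 276.4 CPM (0.89 ± 0.18, adjusted p = 0.0134). In both populations replicate 2 was the higher one for these GTPases. Gbp2 followed, at 190.3 and 245.7 against 106.5 and 120.4 CPM (0.94 ± 0.20, adjusted p = 0.0193). Oas2 was lower, at 15.4 and 11.4 against 39.7 and 19.9 CPM (-1.14 ± 0.29, adjusted p = 0.0437), and its non-Treg replicates differed by nearly as much as the groups.

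The count was larger when a block per mouse was fitted. Then 11 of the 39 passed, 6 higher and 5 lower, beside 12% of all genes. The 5 genes above were among them, and the others were Igtp (log2 fold change 0.61) and Usp18, the ISG15 protease (0.59), which were higher, and Oas3 (-0.58), Ddx58 (-0.31), Rsad2 (-0.83) and Irf7 (-0.41), which were lower. Without the block and with each library left out, Gbp3 passed every time. Samhd1 did not pass without KO FoxP3+CD25+ replicate 2 (0.59) or KO FoxP3-CD25- replicate 2 (0.58), Gbp7 without KO FoxP3-CD25- replicate 1 (0.70) or KO FoxP3+CD25+ replicate 2 (0.71), and Gbp2 without either of these (0.86 and 0.74) or KO FoxP3-CD25- replicate 2 (1.03). Oas2 passed without KO FoxP3-CD25- replicate 2 alone, and its value fell to -0.58 without KO FoxP3-CD25- replicate 1. Calls among the 39 and over all genes both fell without KO FoxP3-CD25- replicate 1, KO FoxP3+CD25+ replicate 2 or KO FoxP3-CD25- replicate 2. Both rose without either WT Treg library.

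The WT and KO comparisons share no library. Across the 39 genes their log2 fold changes had a Pearson r of 0.88 and a Spearman rho of 0.74, and 29 of the 39 (74.4%) had the same sign. Across all 13796 genes r was 0.75 and 68.3% had the same sign. These are descriptions across genes, which are not independent replicates, and Gbp3 and Oas2 lay at the ends of the range.

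**Figure D3:**
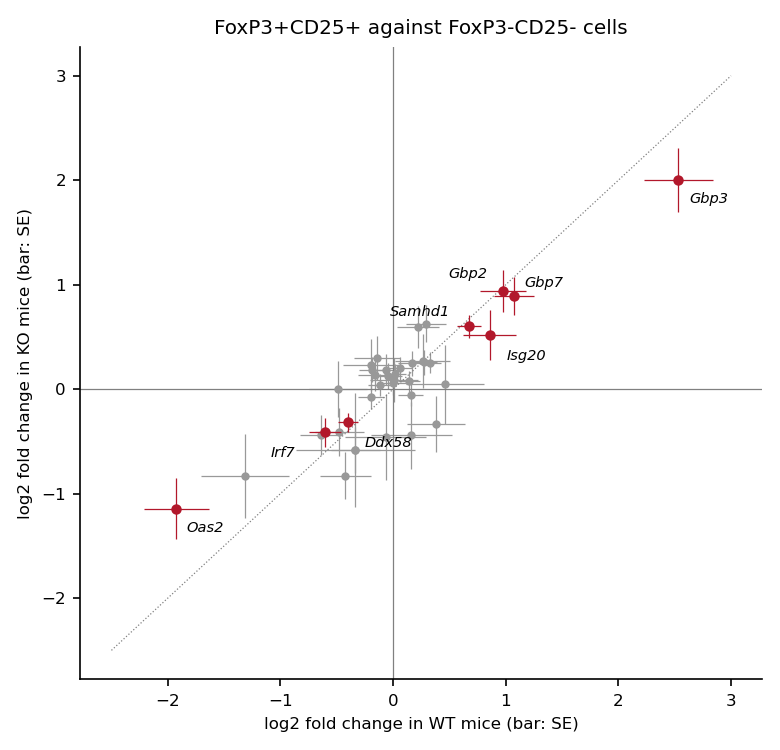
Each point is 1 of the 39 genes, with the log2 fold change of FoxP3+CD25+ over FoxP3-CD25- cells in WT mice on the horizontal axis and in KO mice on the vertical axis, and bars of 1 SE. The 8 genes in red passed in WT or KO mice, and Gbp3 (2.53 and 2.0) and Oas2 (-1.92 and -1.14) stand at the corners near the dotted line of equal change.

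Markers of other cells moved with the Treg gate to a small extent. The 4 B-cell markers summed to 16.2 to 20.4 CPM in the 4 Treg libraries and to 1.65 to 6.62 CPM in the other 6. Cd79b carried this sum, with 96 to 149 counts in Treg libraries and 8 to 31 in the others, while Ms4a1 had 0 to 5 counts in every library. The 4 dendritic-cell markers summed to 3.54 to 8.06 CPM in Treg libraries and to 1.09 to 3.80 CPM elsewhere, mostly from Zbtb46, and Itgax and Flt3 had 0 to 5 counts. Plasmacytoid markers, from cells that secrete type I interferon, summed to 11.4 to 27.0 CPM with overlap between populations, and Siglech had 0 or 1 count. Monocyte (13.9 to 21.3 CPM), CD8 (9.38 to 16.6 CPM), NK (0 to 3.95 CPM) and erythroid (0 to 1.30 CPM) markers also overlapped. The part of these cells in the GTPase levels was not tested.

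FoxP3+CD25- cells of KO mice were set against KO non-Tregs and KO Tregs, with which they share mice, and against WT non-Tregs. All 3 comparisons share the FoxP3+CD25- libraries, and the KO libraries also serve the comparison of KO Tregs with KO non-Tregs. Against KO non-Tregs, 3 of the 39 genes were higher and 0 lower, beside 1.67% of all genes (0.319% higher, 1.35% lower). By unadjusted p under 0.05, 9 were higher and 1 lower, 10 in all, beside 10% of all genes. Of the 39 log2 fold changes 29 were positive with a median of 0.20, whereas 51.1% of all genes were positive with a median of 0.01.

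Ifit2, whose product binds viral RNA and restrains translation, stood at 111.9 and 124.7 CPM in FoxP3+CD25- cells and at 72.6 and 78.7 CPM in KO non-Tregs (log2 fold change 0.65 ± 0.12, adjusted p = 0.0209). Irgm1, a GTPase that regulates clearance of intracellular bacteria, was at 237.1 and 260.7 against 172.8 and 167.3 CPM (0.55 ± 0.11, adjusted p = 0.0317). The FoxP3+CD25- libraries were the highest 2 of the 10 for both genes. For Ifit2 the KO non-Treg libraries were also the lowest 2 of the 10. Against WT non-Tregs, at 107.9 and 98.2 CPM, the log2 fold change of Ifit2 was 0.20 (95% interval -0.05 to 0.45). Samhd1 was at 1479 and 1601 against 1066 and 1040 CPM (0.55 ± 0.11, adjusted p = 0.0322), beside 1480 to 1606 CPM in the Treg libraries. With a block per mouse, 7 genes were higher and none lower, beside 5.7% of all genes (1.85% higher), and the added genes were Gbp4 (log2 fold change 0.50), Igtp (0.63), Gbp7 (0.38) and the response-element factor Irf9 (0.32). Without any one of the 4 libraries compared, Ifit2, Irgm1 and Samhd1 did not pass in the unblocked fit. Calls over all genes also fell. Over these omissions the log2 fold change was 0.57 to 0.72 for Ifit2, 0.48 to 0.61 for Irgm1 and 0.49 to 0.60 for Samhd1. Irgm1 also did not pass without either WT FoxP3-CD25- library (0.55) and Samhd1 without either KO FoxP3+CD25+ library (0.55).

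Against KO Tregs, 5 of the 39 were higher and 1 lower in FoxP3+CD25- cells, beside 7.01% of all genes (2.25% higher, 4.76% lower). Gbp3 was the lower gene, at 31.7 and 62.5 CPM against 139.8 and 194.3 CPM (log2 fold change -1.81 ± 0.31, adjusted p = 0.00458). Its level in FoxP3+CD25- cells overlapped that of both non-Treg groups. Oas2 was at 46.1 and 36.9 against 15.4 and 11.4 CPM (1.63 ± 0.29, adjusted p = 0.0057). Ddx58 was at 202.4 and 193.2 against 143.7 and 146.4 CPM (0.45 ± 0.09, adjusted p = 0.0124). For both genes the FoxP3+CD25- values overlapped those of WT non-Tregs. Irgm1 was at 237.1 and 260.7 against 161.6 and 188.3 CPM (0.51 ± 0.11, adjusted p = 0.0147). Ifit2 was at 111.9 and 124.7 against 80.0 and 92.4 CPM (0.46 ± 0.11, adjusted p = 0.0369). Irf7 was at 86.6 and 95.2 against 61.5 and 62.2 CPM (0.56 ± 0.14, adjusted p = 0.0395). For each of these 5 the FoxP3+CD25- libraries lay above the KO Treg libraries without overlap, as they did for 24% of all genes, while 25.3% lay below without overlap.

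With a block per mouse, 11 genes passed in this comparison, 8 higher and 3 lower, beside 15.1% of all genes. Gbp7 (log2 fold change -0.52) and Gbp2 (-0.58) joined Gbp3 among the lower genes, and Oasl1 (1.20), Oasl2 (0.57) and Ifit3 (0.73) joined the higher ones. Gbp3 passed in the unblocked fit with each library left out. Oas2 did not pass without KO FoxP3+CD25+ replicate 2 (1.42), Irgm1 without KO FoxP3+CD25+ replicate 1 (0.40) or KO FoxP3+CD25- replicate 2 (0.44), and Ddx58 without any one of the 4 libraries compared (0.41 to 0.48). Ifit2 (0.36 to 0.57) and Irf7 (0.49 to 0.62) did not pass without any one of the 8 libraries other than WT Tregs. The count was 2, 3, 2 and 2 without KO FoxP3+CD25+ replicate 1, KO FoxP3+CD25- replicate 1, KO FoxP3+CD25+ replicate 2 and KO FoxP3+CD25- replicate 2, and 4 without any one non-Treg library.

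Against WT non-Tregs, Samhd1 was the 1 gene called, at 1479 and 1601 against 935.8 and 934.4 CPM (log2 fold change 0.72 ± 0.11, adjusted p = 0.0149), beside 0.768% of all genes (0.355% higher, 0.413% lower). Irgm1 (0.49 ± 0.11, adjusted p = 0.0756) and Gbp4 (0.54 ± 0.12, adjusted p = 0.0872) came next. Genotype, mouse and sorted population all differ between these groups and cannot be told apart. With a block per mouse 7 genes were higher, beside 3.89% of all genes (1.88% higher), but that block leaves the spread between mice out of the error. The Samhd1 call was lost without any one of the 4 libraries compared (0.67 to 0.79). Without WT FoxP3+CD25+ replicate 1 or replicate 2, 2 and 3 genes were called.

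The effect of Satb1 deletion on these genes was asked within each sorted population. In Tregs, 0 of the 39 genes passed by edgeR, beside 0.00725% of all genes, and 0 by DESeq2, beside 5 of all genes. By edgeR 1 had an unadjusted p under 0.05, as did 4.29% of all genes. With a block per mouse the count was also 0, beside 0.413% of all genes. Log2 fold changes of KO over WT ran from -0.39 to 0.61 with a median of 0.08. The lowest p belonged to Zbp1, a sensor of Z-form nucleic acids, at 158.4 and 149.1 CPM in KO and 110.0 and 138.4 CPM in WT Tregs (log2 fold change 0.31 ± 0.12, adjusted p = 0.9999). Irf7 was at 61.5 and 62.2 against 42.0 and 57.9 CPM (0.31 ± 0.14) and Rtp4, an interferon-induced antiviral chaperone, at 48.1 and 43.9 against 25.1 and 43.0 CPM (0.43 ± 0.21). In all 3 genes WT Treg replicate 1 was the lowest library of the 4. It comes from the WT mouse with Xist counts, whereas every KO library had 1465 to 1656 counts of Ddx3y. Sex was thus uneven between genotypes in the KO against WT comparisons, and its part was not tested. For 33 of the 39 genes the 95% interval of the difference lay within a 2-fold change in either direction, and for 20 within 1.5-fold. The intervals of Ifit3b, Oas1a, Oas2, Oasl1, Mx2 and Ifi44 reached beyond 2-fold, so these libraries leave a change of that size possible in them.

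In non-Tregs, 0 of the 39 passed by edgeR, beside 0.145% of all genes (0.116% higher, 0.029% lower). By DESeq2 0 passed, beside 98 of all genes. By edgeR 4 had an unadjusted p under 0.05, as did 8.02% of all genes. The median log2 fold change was 0.02 and the range -0.45 to 1.21. Ifit2 was at 72.6 and 78.7 CPM in KO and 107.9 and 98.2 CPM in WT non-Tregs (-0.45 ± 0.12, adjusted p = 0.232). Mx2, a dynamin-like antiviral GTPase annotated as a polymorphic pseudogene, was at 10.6 and 7.91 against 3.98 and 3.92 CPM (1.21 ± 0.33, adjusted p = 0.255). Rsad2, which encodes the antiviral enzyme viperin, was at 16.0 and 14.9 against 9.28 and 10.6 CPM (0.64 ± 0.21, adjusted p = 0.409). None of these 3 overlapped between genotypes, which also held for 19% of all genes in the higher and 19.3% in the lower direction. With a block per mouse Ifit2 (adjusted p = 0.0196) and Mx2 (adjusted p = 0.0223) passed, beside 2.85% of all genes, but that block leaves the spread between mice out of the error. For 35 of the 39 genes the 95% interval lay within 2-fold, and the exceptions were Mx1, Mx2, Rsad2 and Ifi44.

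The difference between both effects was tested as an interaction. By edgeR 0 of the 39 passed, as did 0 of all genes (0%), and by DESeq2 also 0 of the 39, beside 23 of all genes. By edgeR 1 of the 39 had an unadjusted p under 0.05, as did 4.97% of all genes. Ifit2 gave the lowest p (0.38 ± 0.16 on the log2 scale, KO effect in Tregs minus that in non-Tregs, adjusted p = 0.983), followed by Mx1 (-0.72 ± 0.37) and Oas2 (0.78 ± 0.41).

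**Figure D4:**
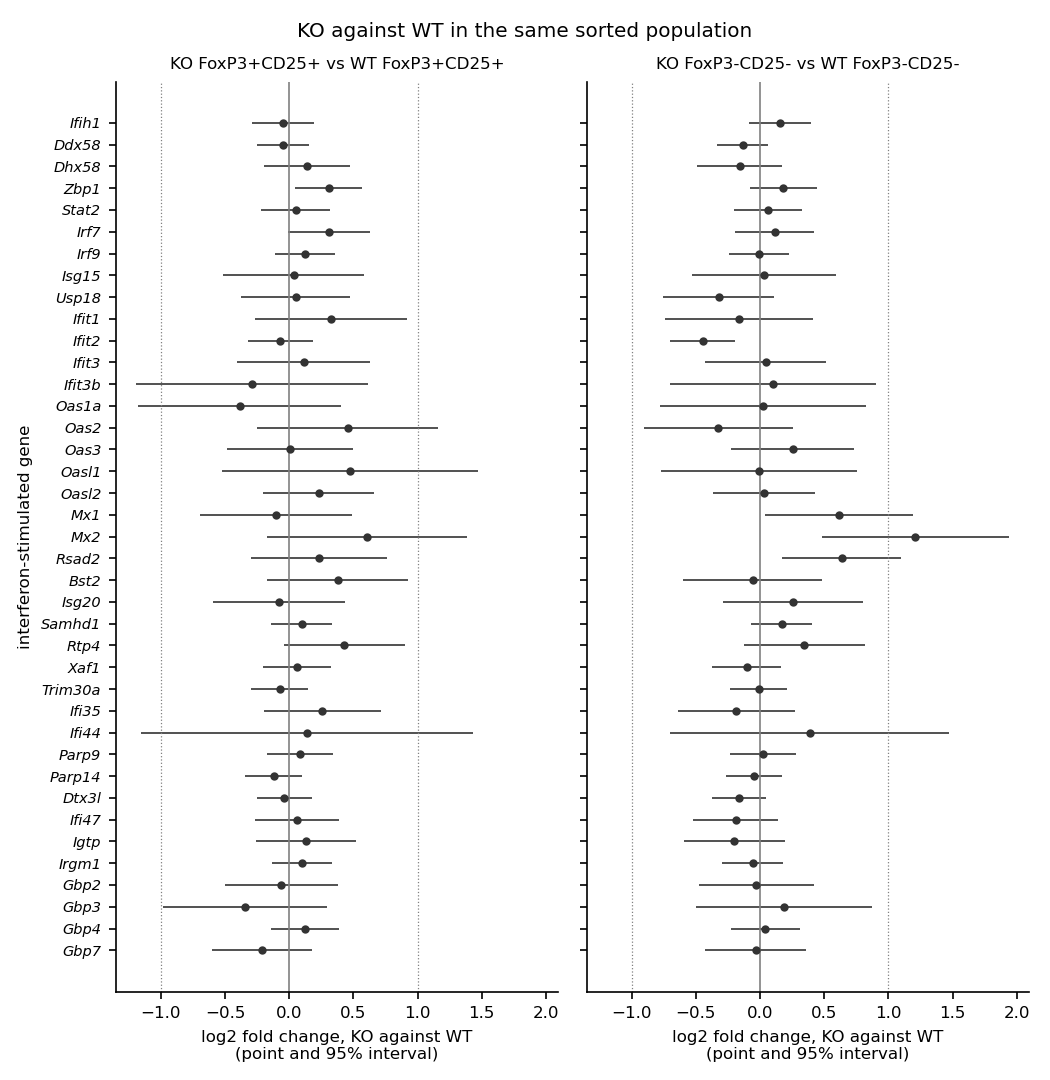
Points give the log2 fold change of KO over WT for each of the 39 genes in FoxP3+CD25+ cells (left) and FoxP3-CD25- cells (right), with 95% intervals and dotted lines at a 2-fold change. Most intervals cross 0 and lie inside the dotted lines, and Mx2 in FoxP3-CD25- cells (1.21) is the point farthest from 0.

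Replicates of a group were close. The median absolute log2 difference between both libraries was 0.11 to 0.24 over the 39 genes and 0.18 to 0.26 over all genes. Ifi44, with 6 to 30 counts per library, stood at 3.07 and 0.709 CPM in WT Tregs, and Oasl1 at 1.92 and 3.90 CPM there. In CPM these were the 2 pairs of replicates that differed over 2-fold among the 39 genes and 5 groups. In WT Tregs 16 of the 39 were higher in replicate 1, including Oas1a (17.4 against 8.74 CPM), and in WT non-Tregs 26 were. Ifit1, a sensor of foreign RNA caps, was at 18.2 CPM in WT Treg replicate 1 and 35.4 CPM in replicate 2.

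Ligands, receptors and regulators of the pathway were read from a second list of 29 genes, of which 26 were tested. The ligand gene Ifnb1 had 0 counts in all 10 libraries, under a limit of 0.248 to 0.496 CPM that 3 counts allow. Ifng, the gene for interferon gamma, was at 23.4 and 10.6 CPM in WT non-Tregs and 27.1 and 26.4 CPM in KO non-Tregs. Tregs had 8.06 and 7.09 CPM (WT) and 4.73 and 5.37 CPM (KO), and FoxP3+CD25- cells 0.808 and 0.547 CPM, from 5 counts in each library. It was thus lowest in the FoxP3+CD25- libraries, with a log2 fold change of -5.32 ± 0.50 against KO non-Tregs (adjusted p = 0.000604) and -2.92 ± 0.63 against KO Tregs (adjusted p = 0.0175). Ifngr1, which encodes the ligand-binding chain of its receptor, was the highest there, at 708.2 and 597.8 CPM against 341.4 and 277.6 CPM in KO non-Tregs (1.08 ± 0.15, adjusted p = 0.00496). It did not pass without KO FoxP3-CD25- replicate 2 (0.93), and Ifng passed with each library left out. Those 2 were the genes of the list that edgeR called between FoxP3+CD25- cells and KO non-Tregs, beside 1.67% of all genes, and DESeq2 also called Ifngr2, at 89.2 and 81.6 against 55.6 and 45.1 CPM.

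Between WT Tregs and WT non-Tregs, 5 of the 26 genes were higher and 1 lower, beside 7.15% and 3.75% of all genes. The endosomal RNA receptor Tlr7 was at 27.0 and 36.9 against 6.63 and 5.06 CPM (log2 fold change 2.44 ± 0.21, adjusted p = 4.2e-05). The transcription factor Irf8 was at 51.7 and 33.7 against 14.7 and 10.2 CPM (1.77 ± 0.24, adjusted p = 0.000818). Socs1, a feedback inhibitor of Janus kinases, was at 69.1 and 87.9 against 42.2 and 38.2 CPM (0.97 ± 0.15, adjusted p = 0.00161). The type I receptor chain Ifnar1 was at 268.7 and 283.4 against 207.4 and 201.9 CPM (0.43 ± 0.09, adjusted p = 0.0128). Irf5 (0.62) and Ifng (-1.18) made up the count and are named because they were the only others. All 4 Treg libraries, WT and KO, were above all 4 non-Treg libraries for Tlr7, Irf8, Socs1 and Ifnar1. In KO mice 7 of the list were higher and 1 lower in Tregs, beside 3.52% and 2.81% of all genes, led by Tlr7 (1.77), Ifng (-2.40), Socs1 (1.02) and Irf8 (1.33). Against KO Tregs, edgeR called 5 genes of the list lower and 0 higher in FoxP3+CD25- cells, beside 4.76% and 2.25% of all genes. DESeq2 also called Ifngr1, which was higher there, at 708.2 and 597.8 against 484.1 and 452.2 CPM. Among the 5, Irf8 (-1.61), Tlr7 (-1.16), Irf5 (-0.74) and Ifng (-2.92) had the lowest p. Irf5 did not pass without any one of the 4 libraries compared (-0.77 to -0.72), nor Tlr7 without KO FoxP3+CD25- replicate 2. Of the list, 0 genes passed between KO and WT in Tregs or in non-Tregs by edgeR or by DESeq2. Over all genes 0.00725% and 0.145% passed by edgeR, and 5 and 98 genes by DESeq2. An unadjusted p under 0.05 was seen for 1 and 4 genes of the list, and for 4.29% and 8.02% of all genes.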

How the data were processed

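RNA from sorted spleen CD4+ T cells was sequenced as single 50-base reads. The authors aligned reads to mm10 with HISAT2 2.1.0 and counted whole reads per gene symbol with HTSeq (0.11.1 in the submitters' processing notes, while the study's methods name another release), and the counts were deposited per library, unnormalized. Whether counting used strand is not given in the sources used here. Tallies that name no gene (71.5% to 74% of each library's tallies) were left out of library sizes and tests.

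Here, edgeR 4.0.16 in R 4.3.3 fitted all 10 libraries with a mean per group, after filterByExpr with a minimum count of 10 and TMM scaling, and 8 contrasts were tested by the quasi-likelihood F-test with Benjamini-Hochberg adjustment over 13796 genes. Libraries with 2 per group left 5 residual degrees of freedom. CPM used TMM-scaled library sizes, levels per kb used merged exons of GENCODE M21 (GRCm38), and promoters came from RefSeq (GRCm38.p6). Intervals are 95%. In the fit without a block, intervals and p-values rest on the spread between the 2 libraries of a group, which come from different mice. The unblocked fit also draws the spread of each gene toward that of other genes, which adds to its residual degrees of freedom. That fit treats libraries of one mouse as independent. For KO against WT its 5 residual degrees of freedom therefore overstate what 2 mice per genotype give. Fits with a block per mouse leave the spread between mice out of the error. The functions were tested on simulated counts. Deviations from group means correlated between libraries of one mouse (r = 0.30 to 0.44 over all genes) and not otherwise (-0.01 to 0.11), and the pairing comes from the sample names, so a block per mouse was fitted beside the design without it. Named genes were all members past an adjusted p of 0.05, or the 3 of lowest p where none passed, and up to 4 of lowest p from each other list. The members and lists were chosen with earlier results of these data known. Alternatives were DESeq2 1.42.0, other scalings, filters, tests and blocks, and each library left out.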

Additional observations from a re-analysis of the deposited data

How the results depend on the processing

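Of 1200 values for single genes under the alternatives, 1040 kept their direction and side of the threshold, 158 kept their direction and no longer passed, 2 (Ifit2 and Mx2 between KO and WT non-Tregs, with a block per mouse) newly passed and 0 reversed; where a cause is not part of the alternative it was not tested. In the count of the 39 genes called, RLE scaling, a filter on CPM and the earlier form of the quasi-likelihood test gave the counts reported. For FoxP3+CD25- cells against KO non-Tregs the count rose from 3 to 5 with no filter, with DESeq2 and with the likelihood ratio test. It was 5 with a replicate block by number and 7 with the block by mouse. Calls over all genes rose in the same order, from 230 to 411, 366, 514, 403 and 786. Against WT non-Tregs the count of the 39 rose from 1 to 2 with no filter. It was 3 with DESeq2, the likelihood ratio test or the block by number, and 7 with the block by mouse. Calls over all genes rose in the same order, from 106 to 238, 217, 306, 217 and 537. Against KO Tregs the block by mouse gave 11 in place of 6, and 2090 in place of 967 over all genes. Scaling by library size alone gave 4 there, with 979 called over all genes. For KO Tregs against KO non-Tregs the blocks by number and by mouse gave 9 and 11 in place of 5. Over all genes they gave 1188 and 1649 in place of 874. Between KO and WT non-Tregs the block by mouse gave 2 in place of 0, and 393 in place of 20 over all genes. A fit of only the libraries compared gave 5 in place of 8 for WT Tregs against WT non-Tregs, and 1076 in place of 1504 over all genes. With 1 library or 1 mouse left out, the counts ran from 4 to 10 in that comparison, from 1 to 8 for KO Tregs against KO non-Tregs, from 0 to 3 for FoxP3+CD25- cells against KO non-Tregs, from 2 to 8 against KO Tregs and from 0 to 3 against WT non-Tregs, and were 0 for every KO against WT comparison and the interaction. Calls over all genes also varied with these omissions in each comparison, so the swings were not limited to the 39 genes. The summed CPM of the 39 genes in KO non-Tregs had a mean of 4513 with library size alone and 4463 as reported. With 2 libraries per group, low genes such as Ifi44 were limited by counting.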

Other observations

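A further list of 51 interferon-inducible genes outside the 39 was read in the same fits, and 44 of them were tested. Between WT Tregs and WT non-Tregs, 6 of these were higher and 2 lower, beside 7.15% and 3.75% of all genes. Gbp5, a guanylate-binding protein that promotes inflammasome assembly, was at 182.5 and 148.7 CPM against 61.9 and 44.3 CPM (log2 fold change 1.64, edgeR adjusted p = 0.000187), and Gbp6 rose by less (0.74, adjusted p = 0.00627). The chemokine gene Cxcl10 was at 15.9 and 9.92 against 3.48 and 3.92 CPM (1.80, adjusted p = 0.00504), and Eif2ak2, which encodes the RNA-activated kinase PKR, was also higher (0.63, adjusted p = 0.00725). In KO mice 3 were higher and 2 lower in Tregs, beside 3.52% and 2.81% of all genes, with Gbp5 (1.56) and Gbp6 (0.62) again higher and the mitochondrial nucleotide kinase gene Cmpk2 (-0.91) and Slfn1 (-0.60) lower.

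In FoxP3+CD25- cells 0 of the 44 passed by edgeR against KO non-Tregs (2 by DESeq2, Irgm2 and Slfn8), while 12 had an unadjusted p under 0.05, beside 10% of all genes. Of the 44 log2 fold changes 35 were positive, with a median of 0.14, beside 51.1% of all genes and a median of 0.01. Against KO Tregs 3 were higher and 2 lower, beside 2.25% and 4.76% of all genes, with Gbp5 at 67.2 and 76.5 against 135.0 and 159.6 CPM (-1.03, adjusted p = 0.00483) and Cxcl10 at 2.43 and 1.86 against 9.31 and 6.03 CPM (-1.85, adjusted p = 0.0248). Cmpk2 (0.78, adjusted p = 0.0129) and Slfn1 (0.70, adjusted p = 0.017) were higher there. Against WT non-Tregs Slfn5, of the Schlafen family, was at 521.3 and 480.9 against 241.6 and 235.0 CPM (1.07, adjusted p = 0.00334). Slfn5 was also at 423.3 and 338.6 CPM in KO non-Tregs. Between KO and WT, 0 of the 44 passed by edgeR in Tregs and 0 in non-Tregs, beside 0.00725% and 0.145% of all genes. An unadjusted p under 0.05 was seen for 4 and 3 of them, and for 4.29% and 8.02% of all genes. DESeq2 called 0 and 1 of the 44, the latter being Slfn5, beside 5 and 98 of all genes.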
